A study of Saccharomyces cerevisiae with 8 samples.

Results

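Ribosome footprints were set against the RNA of the same budding yeast strain growing with 10 µM spermidine supplied, to ask which genes carried many or few ribosomes for the RNA they had. The 4 libraries that hold this comparison, 2 of footprints and 2 of RNA, were taken from a series of 8 by their titles; the other 4 are the same pair of assays with 0 µM spermidine added. Every library came from Saccharomyces cerevisiae of genotype MATa with the ura3-52 and leu2 alleles and with LEU2 in place of both SPE1 (written spel in the labels) and SPE2, so the 0 µM cultures carried the same deletions. Cells were grown in SD medium at 30 °C from a starting OD600 of 0.025 and collected at 0.6 to 0.7. Footprints were the 17 to 34 nucleotide RNA pieces left after RNase I digestion, and 10 µg of total RNA, broken by 15 min at 70 °C, went into each RNA library. Of 5545 genes in the count table, 5488 had enough reads to be tested.

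A ribosome shields a short stretch of the mRNA it is reading from nuclease, so sequencing the shielded pieces counts the ribosomes on each gene. Footprints divided by RNA give a translational efficiency, which is a ratio and not a rate: ribosomes that start often and ribosomes that move slowly both raise it. Short upstream open reading frames in a leader, codon choice and secondary structure are known to set it in yeast. Spermidine is a polyamine that binds RNA and is the donor for hypusine on eIF5A, a factor that helps ribosomes form difficult peptide bonds; a strain without SPE1 and SPE2 cannot make it and takes it up from the medium.

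The 10 µM libraries held 1786419 and 1925498 RNA reads and 3324344 and 4272944 footprint reads, so that 1 read was worth 0.245 to 0.522 CPM. CPM are reads scaled to a common library size, computed here over totals scaled by the trimmed mean of M values (TMM), and the log2 ratio of a gene is its footprint level over its RNA level, as fitted by edgeR. Across the 5488 genes the log2 CPM of the replicates had a Pearson r of 0.987 in footprints and 0.984 in RNA. The labels do not say that replicates were separate cultures, so the p-values measure the spread between these libraries. The deleted genes were near the floor, with 2.61 and 7.18 CPM of RNA for SPE1 and 1.57 and 5.13 for SPE2, while LEU2, the marker gene, stood at 1019 and 1062. All 7 of the a-cell markers examined were in the table, summing to 1369 to 1493 CPM of RNA, and 3 of 4 alpha-cell markers summed to 50.8 to 53.3.

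Footprints followed RNA across genes, with a Pearson r of 0.81 between the log2 mean CPM of the 2 assays, but the ratio varied widely. The middle gene had a log2 ratio of 0.05, and the values at the 5% and 95% points were -2.87 and 1.17, a span of 16.4-fold. The low side reached much further than the high side, from -4.73 at the 1% point to 1.66 at the 99% point. With edgeR's quasi-likelihood test and a Benjamini-Hochberg adjusted p below 0.05, 3602 genes (65.6% of those tested) were called, 1877 higher in footprints than in RNA (34.2%) and 1725 lower (31.4%). That balance turned in 3 of the other fits: it was 1593 higher and 1955 lower with plain library totals, 1665 higher and 1859 lower with the 10 µM libraries alone, and 157 higher and 739 lower when edgeR tested against a 2-fold change. Being called is therefore the usual state of a gene here, and the counts given for gene groups are to be read against these shares. Past 2-fold, 508 genes (9.26%) were higher and 1096 (20.0%) were lower. With library totals, which moved the median ratio by -0.12, the split past 2-fold was 318 higher and 1191 lower. Footprint and RNA CPM did not overlap between the libraries of the 2 assays in 83.9% of all tested genes, and in all but 1 of the called genes.

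**Figure D1:**
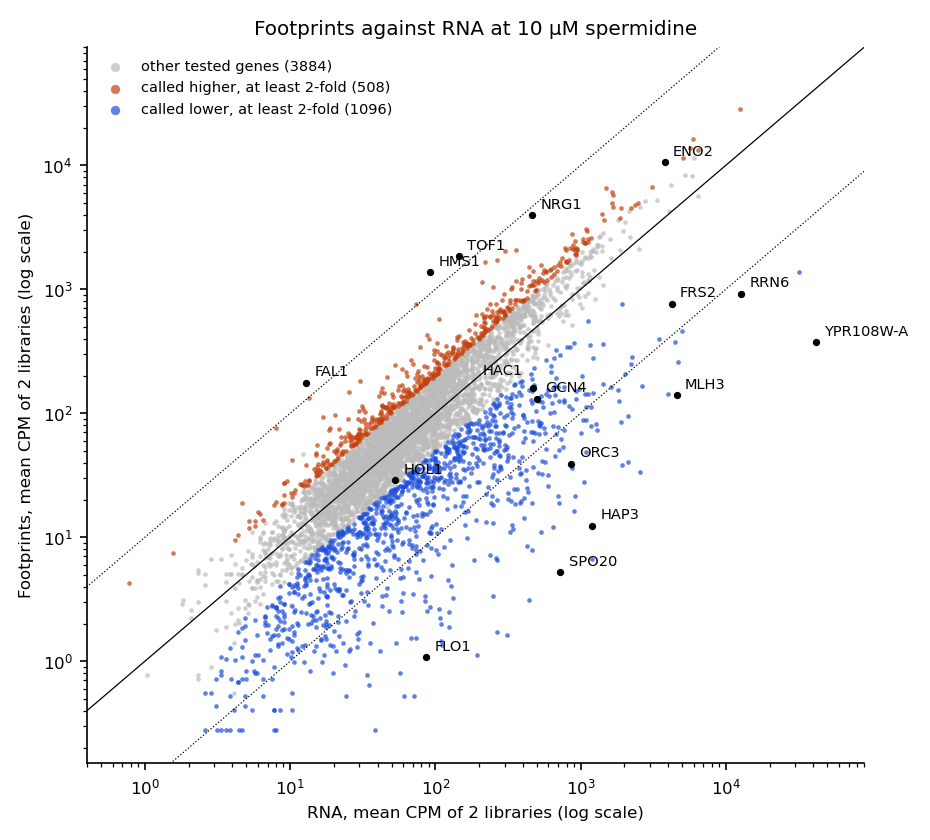
Each point is 1 of the 5488 tested genes, with its mean RNA level (x axis, CPM, log scale) and mean footprint level (y axis, CPM, log scale) over the 2 libraries of each assay at 10 µM spermidine. The solid line marks equal CPM and the dotted lines 10-fold differences; the 1096 genes called lower by 2-fold or more spread far below the line, down to genes such as SPO20, while the 508 called higher stay nearer to it.

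The 12 highest ratios were taken among genes called past 2-fold with at least 50 reads on average and no overlap between assays. The highest was HMS1 (YOR032C, chromosome XV, 389771 to 391075 of build R64), a basic helix-loop-helix factor of pseudohyphal growth. HMS1 had 111 and 73.4 CPM of RNA against 1671 and 1079 CPM of footprints. Both footprint libraries lay far above both RNA libraries, a log2 ratio of 3.90 ± 0.28 (SE, n = 2 libraries per assay; edgeR adjusted p = 2.4e-06). FAL1 (YDR021W, chromosome IV, 486804 to 488003), an RNA helicase of 18S rRNA maturation, had 14.1 and 11.8 CPM of RNA against 180 and 173 CPM of footprints. For FAL1 the log2 ratio was 3.76 ± 0.18 (edgeR adjusted p = 1.4e-07). Its RNA level per kb was at only the 4.78 percentile of genes and its footprint level at the 80.9 percentile. The average of reads used for naming covers both assays. FAL1 passed it through its footprints, with 574 and 706 reads, against only 27 and 23 reads of RNA.

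TOF1 (YNL273W, chromosome XIV, 122883 to 126599), which stabilises stalled replication forks, had 151 and 139 CPM of RNA and 2131 and 1554 CPM of footprints. The gap between assays in TOF1 was many times that between replicates, at a log2 ratio of 3.67 ± 0.18 (edgeR adjusted p = 2.0e-07). NRG1 (YDR043C, chromosome IV, 542674 to 543369), a repressor of genes shut off by glucose, combined a high ratio with high expression, at 405 and 520 CPM of RNA and 4144 and 3775 CPM of footprints. Its footprint level per kb stood at the 99.7 percentile of genes and its log2 ratio was 3.10 ± 0.17 (edgeR adjusted p = 3.0e-07).

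The others in this group ran from 3.35 for APJ1, a J-domain chaperone, down to 2.54 for CIN5, a bZIP factor of salt tolerance. Between them lay ADH7, an alcohol dehydrogenase, at 3.30, HVG1, a relative of the Golgi GDP-mannose transporter, at 3.24, and SPR1, a glucanase of the spore wall, at 2.91. POL4, the polymerase of DNA end joining, stood at 2.74, SHM1, the mitochondrial serine hydroxymethyltransferase, at 2.68 and FMP10, a mitochondrial protein of unknown role, at 2.61. HVG1 overlaps the annotated gene FMP49, and its RNA level rests on 11 and 20 reads. The SE of HVG1, 0.41, was the largest of the 12. The RNA levels of ADH7, on 21 and 31 reads, and of CIN5, on 49 and 49, also rest on few reads. For ADH7 the log2 ratio was 3.93 in replicate 1 and 2.67 in replicate 2.

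**Figure D2:**
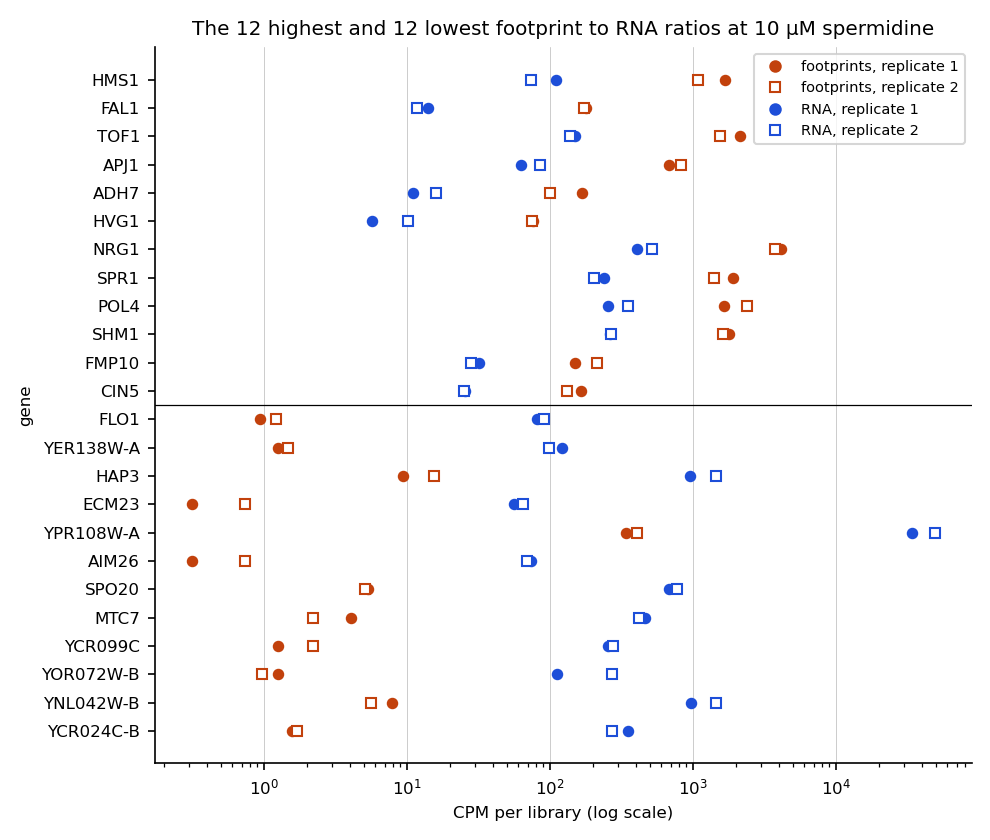
CPM in each library at 10 µM spermidine (x axis, log scale) for the 12 genes with the highest and the 12 with the lowest ratios; orange marks footprints, blue marks RNA, filled circles replicate 1 and open squares replicate 2. The 2 colours are separated in all 24 genes, which the choice of genes required, and genes such as AIM26 and ECM23 have footprints at the level of 1 and 3 reads.

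At the other end, 6 of the 12 lowest genes are known by a systematic name only. The lowest was YCR024C-B (chromosome III, 162599 to 162865), with 354 and 273 CPM of RNA and 1.57 and 1.71 CPM of footprints, which were 5 and 7 reads. That gave a log2 ratio of -7.54 ± 0.25 (edgeR adjusted p = 3.1e-08), with no overlap between assays. YPR108W-A, which the RefSeq table did not match, was the most abundant RNA of all, at 33920 and 49280 CPM, and took 3.64% and 4.99% of all RNA reads against 0.0328% and 0.0387% of footprint reads. Among the 12, YNL042W-B, YOR072W-B and YCR099C overlap another annotated gene, YNCN0009W, SUF11 and EMA35 in turn, and MTC7 ends 6 bp from a noncoding RNA gene, YNCE0005W. Reads of overlapping genes cannot be assigned between them here, since whether strand was used in counting is not given.

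Characterised genes also stood among the lowest. SPO20 (YMR017W, chromosome XIII, 307489 to 308682), the SNARE that builds the spore membrane in meiosis, had 679 and 774 CPM of RNA and 5.33 and 5.14 CPM of footprints. Its RNA level per kb was at the 96.1 percentile of genes and its footprint level at the 5.88 percentile, a log2 ratio of -7.11 ± 0.36 (edgeR adjusted p = 2.2e-07). HAP3 (YBL021C, chromosome II, 181660 to 182094), a DNA-binding subunit of the CCAAT-box complex that drives respiratory genes, had 953 and 1457 CPM of RNA and 9.40 and 15.4 CPM of footprints, a log2 ratio of -6.57 ± 0.31 (edgeR adjusted p = 1.5e-07). FLO1, a cell wall lectin of flocculation, stood at -6.25 with 3 and 5 footprint reads. AIM26 at -6.94 and ECM23 at -6.70 each had 1 and 3 footprint reads, so the size of their ratios is set by a handful of counts. MTC7 stood at -7.17, YNL042W-B at -7.50, YOR072W-B at -7.41, YCR099C at -7.20 and YER138W-A at -6.29. Few footprint reads also lie behind YOR072W-B, with 4 and 4, YCR099C, with 4 and 9, and YER138W-A, with 4 and 6. YOR072W-B had an SE of 0.65, the largest of the 12 lowest genes, and log2 ratios of -6.49 in replicate 1 and -8.12 in replicate 2.

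Most genes for translation factors were called higher in footprints than in RNA. Of 27 initiation factor genes 24 were called higher and 1 lower, with a median log2 ratio of 0.79, against 34.2% higher and a median of 0.05 over all genes. GCD7, a regulatory subunit of the exchange factor eIF2B, led them, from 80.4 and 75.9 CPM of RNA to 329 and 352 CPM of footprints. Its log2 ratio was 2.12 ± 0.17 (edgeR adjusted p = 5.5e-06), followed by HCR1, a subunit associated with eIF3, at 1.78 ± 0.12. GCD1, of the catalytic subcomplex of eIF2B, was the 1 factor called lower, at -0.84 ± 0.11 (edgeR adjusted p = 8.1e-05). SUI1 was not called at -0.25, although library totals, a mean count of at least 100 and the 10 µM libraries alone called it lower. Of 17 elongation and termination factor genes 14 were higher and 1, HEF3, was lower; the median was 0.68. TEF2, for eEF1A, stood at 1.58 ± 0.13, although its reads can be shared with the near-identical TEF1. Of 20 cytosolic aminoacyl-tRNA synthetases 14 were higher, with GUS1 for glutamate at 1.04 ± 0.09 and a median of 0.72, and FRS2 for phenylalanine was lower at -2.47 ± 0.10.

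Ribosomal protein genes were higher more often than genes at large but by smaller steps. Of 81 large-subunit genes 59 were called higher and 5 lower, with a median log2 ratio of 0.60, and of 56 small-subunit genes 34 were higher and 3 lower, with a median of 0.44. Together they took 6.48% and 5.58% of RNA reads and 7.94% and 8.34% of footprint reads. RPL3 went from 1403 and 1485 CPM in RNA to 3435 and 3758 CPM in footprints, a log2 ratio of 1.32 ± 0.10 (edgeR adjusted p = 3.1e-06). RPS7B, at 1.48 ± 0.11, and RPS11A, at 1.45 ± 0.12, led the small subunit, and RPL35A at -0.65 ± 0.13 and RPS28A at -0.68 ± 0.13 were among the genes called lower. In 58 of 59 duplicated pairs the 2 copies lay within 1 log2 unit of each other, with a median difference of 0.27, although reads of near-identical copies may be shared by the counting. The exception was RPS7, where RPS7A stood at 0.03 and RPS7B at 1.48. Ribosome assembly factors were closer to the rest of the genome, with 35 of 73 higher, 11 lower and a median of 0.34. RRP12, which exports pre-ribosomes, had 4506 and 4456 CPM of RNA against 359 and 392 CPM of footprints, a log2 ratio of -3.58 ± 0.10 (edgeR adjusted p = 1.2e-08), and NOP58, a core protein of box C/D particles, stood at -3.14 ± 0.14.

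Genes for central metabolism and for protein folding held the highest group medians. Of 21 glycolysis and fermentation genes 19 were called higher and 2 lower, with a median log2 ratio of 1.09. These 21 genes took 5.95% and 5.51% of RNA reads and 12.1% and 11.9% of footprint reads. ENO2, the main enolase, had 3851 and 3722 CPM of RNA and 10570 and 10710 CPM of footprints, a log2 ratio of 1.49 ± 0.09 (edgeR adjusted p = 8.8e-07). The 2 called lower were PDC5, at -1.09 ± 0.20, and PDC6, at -2.25 ± 0.26, the minor pyruvate decarboxylases, beside 1.17 for PDC1. Chaperones followed with 31 of 35 higher, 2 lower and a median of 0.97. STI1, a co-chaperone of Hsp70 and Hsp90, stood at 1.60 ± 0.13. SSA3 and SSA4, the heat-induced Hsp70 genes, were the 2 called lower, at -1.86 and -1.47. APJ1, named above among the highest ratios, is not a member of the chaperone list.

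Amino acid synthesis had 47 of 60 genes higher, 4 lower and a median of 0.90, led by ARO2 for chorismate, at 1.62 ± 0.13, and ARG1 for arginine, at 1.60 ± 0.15. Proteasome subunits were even, with 31 of 33 higher and a median of 0.88; PUP1, a core subunit, was highest at 1.48 ± 0.12. RPN2, the lowest, stood at -0.04 and was 1 of the 2 not called. Ergosterol synthesis had 20 of 25 higher and 5 not called, with a median of 0.77, and ERG20 and ERG6 stood at 1.35 and 1.30. Among those not called, ERG24 and ERG7 were called lower under library totals, a mean count of at least 100 and the 10 µM libraries alone. Oxidative stress defence had 20 of 29 higher and 3 lower, with a median of 0.79; AHP1, a peroxiredoxin, went from 1418 and 1570 CPM of RNA to 6392 and 6625 CPM of footprints, a log2 ratio of 2.12 ± 0.11 (edgeR adjusted p = 2.2e-07).

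Mitochondrial genes encoded in the nucleus leaned the same way. Of 38 respiratory chain and ATP synthase genes 30 were higher and 2 lower, with a median of 0.74; CYC1, cytochrome c, stood at 1.25 ± 0.12. SDH4, a membrane anchor of succinate dehydrogenase, was lower at -1.26 ± 0.12 and NDE2, the minor external NADH dehydrogenase, at -5.46 ± 0.45. The citric acid cycle had 18 of 21 higher and a median of 0.71, mitochondrial ribosomal proteins 48 of 71 higher, 8 lower and a median of 0.59, and mitochondrial import 19 of 34 higher, 6 lower and a median of 0.46. Cell wall genes had 23 of 33 higher and 8 lower, and split widely, from SED1, a major wall protein, at 1.88 ± 0.10 and HSP150 at 1.79 ± 0.11 to FLO11, a flocculin, at -3.64 ± 0.49. FLO1, at -6.25, is not a member of the cell wall list. Cytoskeleton genes had 28 of 42 higher and 8 lower, general stress genes 23 of 35 higher and 5 lower, and mRNA decay genes 19 of 34 higher and 5 lower.

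**Figure D3:**
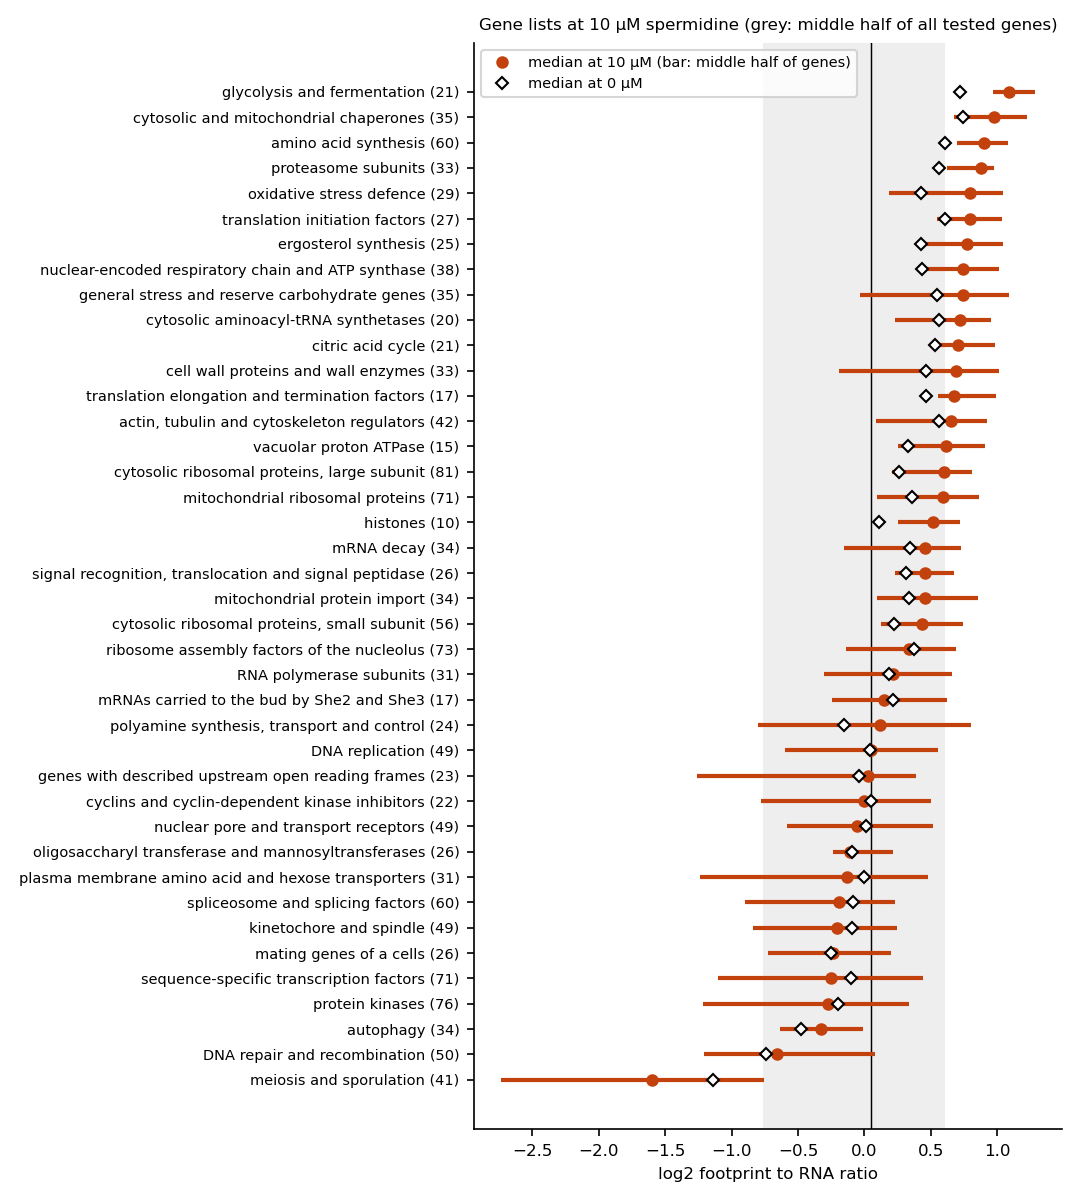
Median log2 footprint to RNA ratio of each gene list with at least 5 tested genes at 10 µM spermidine (orange dots; bars span the lower to the upper quartile) and at 0 µM (open diamonds), with the number of tested genes in brackets; the grey band and line are the quartiles and median of all 5488 genes. Glycolysis and fermentation stand highest at 1.09, and meiosis and sporulation lowest at -1.60.

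Lists for regulation and for chromosome work lay near or below the typical gene. Their medians moved between the other fits that kept every library of this comparison. That of protein kinases ran from -0.39 to 0.14 and that of transcription factors from -0.40 to 0.11. DNA repair genes ran from -0.83 to -0.22 and meiosis genes from -1.72 to -0.92. The median of all tested genes was -0.07 with library totals and 0.16 with the length correction. Meiosis and sporulation genes, which a haploid growing cell does not use, had the lowest median of the lists with at least 5 tested genes: 31 of 41 were called lower, 27 of them past 2-fold, and the median log2 ratio was -1.60. The 3 tested alpha-cell genes had a median of -1.66, with 2 called lower. SPO20 and DIT2, a cytochrome P450 of the spore wall, at -5.81 ± 0.53, were at the bottom. NDT80, the meiotic transcription factor, stood at -3.35 and SPO13 at -5.03; both were named after their values were seen. SPR1 went against the list, with 239 and 203 CPM of RNA and 1896 and 1411 CPM of footprints, a log2 ratio of 2.91 ± 0.19 (edgeR adjusted p = 1.0e-06). DMC1, the meiotic recombinase, was the other member called higher, at 0.67 ± 0.26 (edgeR adjusted p = 0.046), a call lost under library totals, DESeq2, limma voom and the length correction and in 6 of the 8 fits with a library left out. Whole cultures were sequenced, so few cells using a gene and weak use by all cells cannot be told apart.

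DNA repair and recombination genes had 29 of 50 called lower and 7 higher, with a median of -0.66, and took 1.47% and 1.51% of RNA reads but 0.219% and 0.223% of footprint reads. RAD30, a polymerase that copies past damage, had 2317 and 1934 CPM of RNA against 42.3 and 38.6 CPM of footprints, a log2 ratio of -5.72 ± 0.22 (edgeR adjusted p = 5.5e-08). SGS1, a RecQ helicase, stood at -5.25 ± 0.24, while OGG1, which removes oxidised guanine, was higher at 1.58 ± 0.19. POL4, at 2.74, is not a member of the repair list. Protein kinases had 34 of 76 lower and 17 higher, with a median of -0.27. BUB1, a kinase of the spindle checkpoint, had 836 and 1005 CPM of RNA and 22.9 and 20.6 CPM of footprints, a log2 ratio of -5.41 ± 0.19 (edgeR adjusted p = 3.8e-08), whereas CDC28, the main cyclin-dependent kinase, was higher at 1.37 ± 0.12. Transcription factors had 27 of 71 lower and 17 higher, from HAP3 at -6.57 ± 0.31 and ARO80 at -4.53 ± 0.26 to MCM1 at 1.55 ± 0.16. As shares of that list these were 38% lower and 23.9% higher, against 31.4% and 34.2% of all tested genes. HMS1, NRG1 and CIN5 are not members of that list.

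Splicing genes had 22 of 60 lower and 6 higher, kinetochore and spindle genes 20 of 49 lower and 5 higher, and autophagy genes 14 of 34 lower and 7 higher. The lower shares were 36.7%, 40.8% and 41.2% in turn, not far above the 31.4% of all tested genes. The higher shares were 10%, 10.2% and 20.6%, against 34.2%. DNA replication, with 16 higher and 14 lower of 49, cyclins, with 7 higher and 9 lower of 22, and the nuclear pore, with 15 higher and 17 lower of 49, split about evenly. PCL10, a cyclin of glycogen control, stood at -3.67 ± 0.18 and PCL1, a G1 cyclin, at 1.47 ± 0.16.

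Of 26 genes of the mating pathway of a cells 4 were called higher and 11 lower. The receptor STE2 had 481 and 454 CPM of RNA and 560 and 507 CPM of footprints and was not called, at 0.19 ± 0.11 (edgeR adjusted p = 0.16). The G protein alpha subunit GPA1 was higher at 1.05 ± 0.10, while the kinases KSS1 at -2.94 ± 0.27 and FUS3 at -2.73 ± 0.41 were the lowest of the 26 genes. FUS3 had 466 and 580 CPM of RNA and 76.4 and 81.2 CPM of footprints (edgeR adjusted p = 0.00027). STE5, the scaffold that holds those kinases, was called higher at 1.28, but its footprints were 133 and 421 CPM in the 2 libraries against 105 and 125 of RNA. With the second of those footprint libraries left out, its log2 ratio was 0.22 and was not called. The call was also lost without either RNA library at 10 µM, and in limma voom with all libraries kept.

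Among 23 genes with described upstream open reading frames, 5 were called higher and 10 lower, 7 of them past 2-fold, and the median log2 ratio was 0.03, near that of all genes. The lowest was INO2, an activator of phospholipid synthesis, with 1972 and 2264 CPM of RNA and 72.7 and 118 CPM of footprints, a log2 ratio of -4.47 ± 0.26 (edgeR adjusted p = 6.2e-07). GCN4 (YEL009C, chromosome V, 138918 to 139763), the activator of amino acid synthesis, whose leader holds upstream reading frames that restrain its translation in fed cells, had 510 and 497 CPM of RNA and 126 and 137 CPM of footprints. Its assays did not overlap, at a log2 ratio of -1.94 ± 0.10 (edgeR adjusted p = 2.0e-07). CPA1, whose upstream peptide stalls ribosomes when arginine is ample, had 581 and 647 CPM of RNA and 534 and 720 CPM of footprints, which overlap, and was not called, at 0.03 ± 0.14. YAP1, an oxidative stress factor, stood at 0.43 ± 0.14, a call lost under library totals, a stricter filter, DESeq2, the 10 µM libraries alone and 2 of the fits with a library left out, and CLN3, a G1 cyclin, at -0.77 ± 0.11 (edgeR adjusted p = 0.00024). RCK1, a kinase, had footprints of 80.2 CPM in one library and 14.4 in the other and was not called at 1.91 ± 0.77 (edgeR adjusted p = 0.051), although 5 other settings and 3 of the fits with a library left out called it. HAC1 (YFL031W, chromosome VI, 75179 to 76147), the factor of the unfolded protein response, whose unspliced mRNA is held back by base pairing of its intron with its leader, stood at -1.54 ± 0.17 (edgeR adjusted p = 2.9e-05). It had 502 and 435 CPM of RNA and 170 and 151 CPM of footprints. Counts per gene carry no position, so footprints on a leader, an intron and a coding region are not separated.

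HOL1 (YNR055C, chromosome XIV, 728426 to 730186), a plasma membrane transporter for polyamines whose leader encodes a short upstream peptide, was called lower. It had 51.2 and 54.9 CPM of RNA and 32.3 and 25.7 CPM of footprints at 10 µM, with no overlap, a log2 ratio of -0.88 ± 0.16 (edgeR adjusted p = 0.00093). By level per kb HOL1 was at the 34.2 percentile of genes in RNA and the 22.5 percentile in footprints, so a ratio this low is shared by many genes: the lower quartile of all genes was -0.75. Of 24 genes for polyamine synthesis, transport and control 10 were higher and 8 lower. The synthesis gene SPE3, for spermidine synthase, stood at 0.88, DYS1 and LIA1, which put hypusine on eIF5A, at 0.79 and 1.15, and FMS1, polyamine oxidase, at 1.39 ± 0.39. FMS1 had 161 and 67.5 CPM of footprints; leaving out the first of these libraries gave a log2 ratio of 0.65 that was not called, and the call was also lost without RNA replicate 1. The export genes TPO1 and TPO3 were lower, at -0.78 and -1.63, and so was UGA4, a vacuolar permease, at -2.26 ± 0.40. OAZ1, the antizyme, which is made only when ribosomes shift frame, had 39.7 and 45.1 CPM of RNA and 33.2 and 32.1 CPM of footprints and was not called, at -0.38 ± 0.22 (edgeR adjusted p = 0.15), although it was called lower with the 10 µM libraries alone and with the length correction. The other frameshift genes, EST3 at -0.92 ± 0.21 and ABP140 at 0.63 ± 0.12, were called in opposite directions. SPE1, a deleted gene, was called at -1.68 on 2.61 and 7.18 CPM of RNA, a call lost in DESeq2 and in 3 of the fits with a library left out; it was -0.77 without RNA replicate 2 at 10 µM.

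Subunits that work in 1 complex were compared with each other, in complexes chosen after their values were seen. Several complexes were even: the 14 subunits of the core proteasome lay between 0.60 and 1.48, the 5 core subunits of eIF3 between 0.60 and 1.13 and the 8 of the CCT chaperonin between 0.10 and 1.32. Others had 1 subunit far from its partners. In the origin recognition complex, ORC3 stood at -4.43 ± 0.19 (edgeR adjusted p = 9.4e-08), while its 5 partners lay between -0.41 and 0.84. The gap was in the RNA: per kb, ORC3 had 403 and 518 CPM of RNA, where no partner exceeded the 37.4 CPM per kb of ORC5, but 19.0 and 23.4 CPM of footprints, within the range of 13.1 to 36.3 CPM per kb spanned by the partners.

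The same arrangement was seen in other complexes. MRE11, a nuclease of double-strand break repair, had 355 and 487 CPM per kb of RNA against 15.1 to 20.8 for RAD50 and XRS2, and 16.9 and 18.2 CPM per kb of footprints against 7.54 to 11.9. HAP3 had 2190 and 3350 CPM per kb of RNA against 15.4 to 46.4 for HAP2, HAP4 and HAP5, and 21.6 and 35.4 CPM per kb of footprints, within their 11.1 to 40.8. SPT16 and POB3 form the FACT histone chaperone: SPT16 had 1560 and 1670 CPM per kb of RNA and POB3 61.4 and 70.5, while their footprints were 145 and 149 against 124 and 121. FRS1 and FRS2, the 2 chains of phenylalanyl-tRNA synthetase, showed it too, with 270 and 262 against 2690 and 2930 CPM per kb of RNA and 308 and 314 against 529 and 483 of footprints.

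Among genes with high ratios, TOF1 and GCD7 stood apart mainly in footprints. TOF1 had 40.6 and 37.3 CPM per kb of RNA, somewhat above the 25.7 and 25.3 of CSM3 and the 22.1 and 21.5 of MRC1, its partners at the fork. Its footprints were 573 and 418 CPM per kb, against 22.3 and 25.1 for CSM3 and 7.23 and 8.99 for MRC1. NUF2, in the NDC80 kinetochore complex, stood apart in both, with 187 and 179 CPM per kb of RNA and 890 and 651 of footprints, above NDC80, SPC24 and SPC25 in every library. In eIF2B, GCD7 had 70.2 and 66.2 CPM per kb of RNA, within the range of the other 4 subunits, and 287 and 307 of footprints, above all of them.

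**Figure D4:**
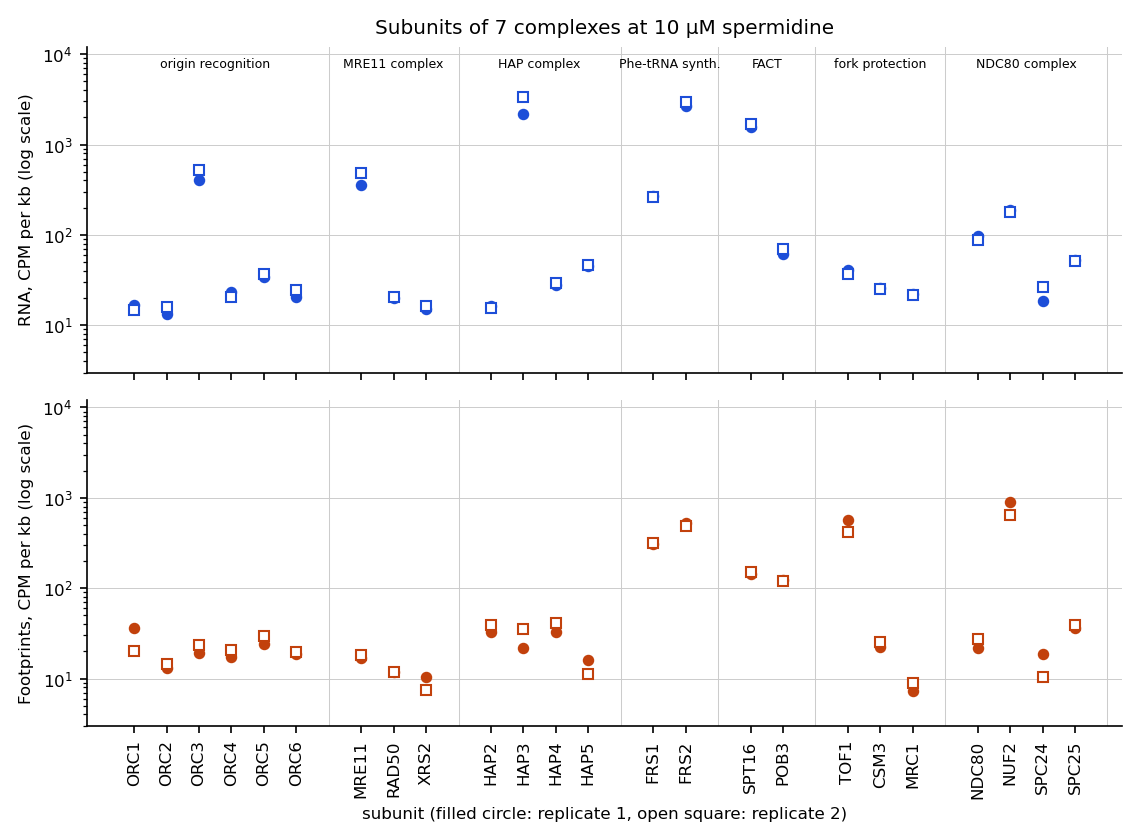
CPM per kb of gene length (y axes, log scale) in RNA (upper panel) and in footprints (lower panel) for the subunits of 7 complexes at 10 µM spermidine; filled circles are replicate 1 and open squares replicate 2. ORC3, MRE11, HAP3, FRS2 and SPT16 rise above their partners in RNA by far more than in footprints, and TOF1 does so in footprints by far more than in RNA.

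ORC3, MRE11, HAP3 and SPT16 belong to a larger set of genes with abundant RNA and few footprints; FRS2, at -2.47, lies outside its limit. Of 319 tested genes with a mean of at least 500 CPM of RNA, 61 were called with a log2 ratio of -3 or lower. They took 17.2% and 20.7% of all RNA reads at 10 µM and 0.818% and 0.902% of footprint reads. The limits used to choose these genes set the direction of that gap. Much of the RNA share came from YPR108W-A, YLR154C-G, RRN6 and YOL013W-A, and less from genes such as ORC3. YPR108W-A alone took 3.64% and 4.99% of RNA reads. YOL013W-A, which the RefSeq table did not match, had 12080 and 13570 CPM of RNA. RRN6, a factor of RNA polymerase I, was the most abundant gene with a standard name among the 61. It had 12180 and 13300 CPM of RNA and 850 and 992 CPM of footprints, a log2 ratio of -3.79 ± 0.12 (edgeR adjusted p = 2.1e-08). MLH3, a protein of meiotic crossing over, had 4142 and 5048 CPM of RNA and 144 and 136 CPM of footprints, a log2 ratio of -5.03 ± 0.14 (edgeR adjusted p = 1.2e-08). EMP65, a membrane protein of the endoplasmic reticulum, had 2074 and 3069 CPM of RNA and 26.9 and 40.4 CPM of footprints, and VNX1, a vacuolar cation exchanger, 4535 and 4845 against 248 and 266. YLR154C-G, at 25480 and 37910 CPM of RNA and -4.52 ± 0.21, lies within the annotated ribosomal RNA genes RDN37-2 and RDN25-2. The labels name neither poly(A) selection nor removal of ribosomal RNA for these libraries. MLH3, EMP65, RRN6, VNX1, YLR154C-G and YOL013W-A were named after their values were seen, and whether reads from other RNAs contribute to these genes was not tested.

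Among the 4644 tested genes with at least 50 reads on average, the extremes differed from the rest in annotation. The 172 genes at -3 or lower had only a systematic name in 18.0% of cases, against 5.0% of all 4644, and overlapped another gene in 7.56%, against 1.81%. They were within 500 bp of a noncoding RNA gene in 11.0%, against 6.4%. The 86 genes at 1.5 or higher were nearly all named, with 1.16% systematic names.

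Long genes had lower ratios. By gene-model length, the median log2 ratio was 0.26 in the shortest quintile of genes, 0.35, 0.18 and -0.08 in the next quintiles and -0.43 in the longest, which starts at 2130 bp. Called lower were 19.5% of the shortest and 52.6% of the longest quintile. Across 5486 genes the Spearman rho of ratio with length was -0.25, a description over genes that share the same 4 libraries. Genes with more RNA had higher ratios: with RNA per kb taken from the 0 µM libraries, which the ratio does not use, the quintiles had medians of -0.40, -0.08, 0.11, 0.18 and 0.53, and rho was 0.26. The lower quartile went less evenly, through -1.26, -0.72, -0.52, -0.64 and -0.28. Genes known by a standard name had a median of 0.09 and the 385 with only a systematic name -0.59.

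**Figure D5:**
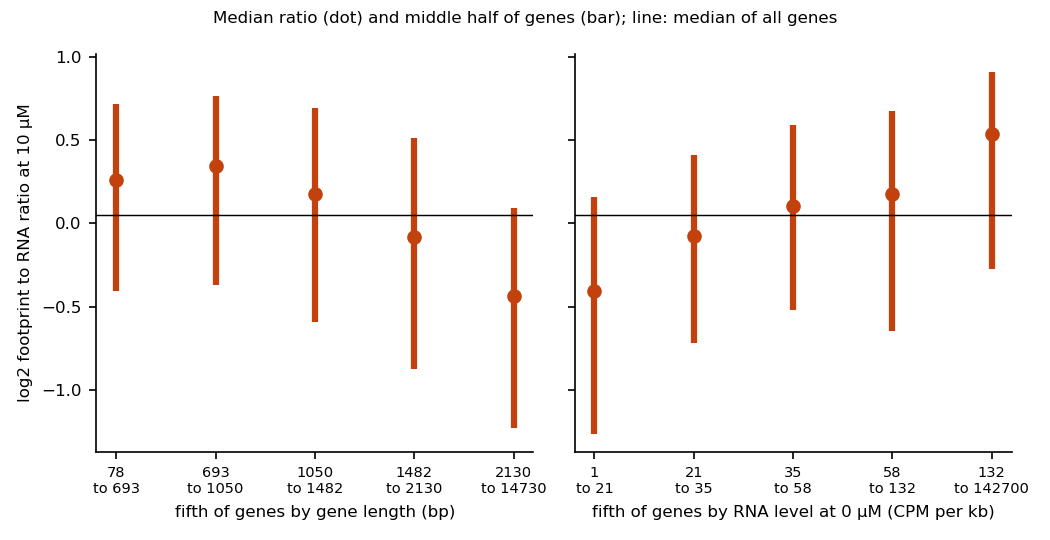
Log2 footprint to RNA ratio at 10 µM spermidine (y axis) in quintiles of genes by gene-model length in bp (left) and by RNA level at 0 µM in CPM per kb (right); dots are medians, bars span the quartiles and the line is the median of all genes. The median falls to -0.43 in the longest quintile and climbs from -0.40 to 0.53 with RNA level.

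Pairs of genes for the same enzyme, again chosen after their values were seen, were compared as a main and a minor copy. In 18 of 21 pairs the main gene had the higher log2 ratio, with medians of 0.99 for main genes and -0.92 for minor genes. The main gene was called higher in 20 pairs, and the minor gene lower in 10 and higher in 5. YEF3, elongation factor 3, stood at 0.65 and its minor copy HEF3 at -5.59 ± 0.29, with 477 and 596 CPM of RNA for HEF3 against 32 and 49 footprint reads. PMA1, the proton pump of the plasma membrane, stood at 0.69 beside PMA2 at -5.03, and DAK1 at 1.03 beside DAK2, both dihydroxyacetone kinases, at -5.27. The peroxiredoxins went the other way, with TSA1 at 0.79 and TSA2 at 1.36, as did HYP2 at 0.99 and ANB1 at 2.37 ± 0.83 for eIF5A, although ANB1 had 2 and 1 reads of RNA and its call was lost in DESeq2 and in 3 of the fits with a library left out. The third exception was the glucan synthases, with FKS1 called lower at -0.26 and GSC2 not called at 0.05.

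Most of this ordering was already present without spermidine. Over the 5488 genes the log2 ratios at 10 and 0 µM had a Pearson r of 0.92 and a Spearman rho of 0.90. Between the replicates at 10 µM the Pearson r was 0.94. These are unlike measures: the ratios of the 2 media were fitted over 2 libraries per assay. The replicate ratios came from single libraries paired by replicate number. The edgeR test of the difference between the 2 ratios called 98 genes (1.79%), 49 higher at 10 µM (0.893%) and 49 lower (0.893%). With library totals the split was 37 higher and 83 lower. The count was 20 without RNA replicate 2 at 10 µM, 34 and 39 without footprint replicate 1 or 2 at 10 µM, 49 without RNA replicate 1 at 10 µM, 45 and 64 without footprint replicate 1 or 2 at 0 µM, and 151 without RNA replicate 2 at 0 µM.

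GCN4 and HAC1 were among the 98. At 0 µM GCN4 had 1078 and 1054 CPM of RNA but 61.0 and 61.5 CPM of footprints, so its log2 ratio of -1.94 at 10 µM compares with -4.12, a difference of 2.18 ± 0.14 (edgeR adjusted p = 7.5e-05). HAC1 at 0 µM had 898 and 726 CPM of RNA and 32.8 and 45.4 CPM of footprints, and its ratio was higher at 10 µM by 2.82 ± 0.24 (edgeR adjusted p = 0.0006). For both genes RNA was lower and footprints were higher at 10 µM in every library. RPL22B, a ribosomal protein gene, differed by 1.89 ± 0.19 (edgeR adjusted p = 0.0017), from -1.81 at 0 µM to 0.08. For HOL1 the ratio was -0.19 at 0 µM, and the difference of -0.70 ± 0.21 was not called (edgeR adjusted p = 0.12).

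Of the 137 ribosomal protein genes 9 had a called difference, each of them higher at 10 µM, against 0.893% of all tested genes called higher. Such calls depended on the libraries and scaling used, as the counts above show. Apart from RPL22B, how these ribosomal protein calls fared in the other fits is not given here. The median of the large-subunit genes was 0.60 at 10 µM and 0.26 at 0 µM, and that of the small-subunit genes 0.44 and 0.22. Meiosis genes had medians of -1.60 and -1.14 and glycolysis and fermentation genes 1.09 and 0.72.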

How the data were processed

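The authors deposited a table of whole-number read counts per gene for 8 libraries; builds sacCer3 and R64 and the tools edgeR, cutadapt and Bowtie (versions 1.1.2 and 1.2.2) are listed without their use, per the submitters' processing notes. The sources used here do not give the counted part of a gene, strand or the handling of reads that match several genes. No deposited count was below 1, and genes at 0 in a library may be missing for that reason. A further 3 lines held no gene. IDs were matched to a RefSeq R64 gene table (5543 of 5545); gene-model lengths include introns and no UTRs.

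The tests used edgeR 4.0.16 in R 4.3.3: filterByExpr (minimum count 10, minimum total 15), TMM factors, and 1 quasi-likelihood model with 4 groups over all 8 libraries, with 4 residual degrees of freedom. Contrasts were footprints against RNA at 10 µM, the same at 0 µM, and their difference, each adjusted over all tested genes by Benjamini-Hochberg. The SE is the log2 value over the root of its F statistic. Ratios are relative to the typical gene. Replicates differed beyond counting noise (chi-square per degree of freedom 5.61 to 10.3).

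Named genes were the 12 highest and 12 lowest ratios called past 2-fold with at least 50 reads on average and no overlap between assays, a fixed set (HOL1, SPE1, SPE2, LEU2, URA3, GCN4, CPA1, HAC1, OAZ1, YAP1, CLN3), and the 2 highest and 2 lowest of each list. Other members named from the lists were chosen after their values were seen. The genes, lists and comparisons were all chosen with earlier results of these data known. Alternatives were other scalings, filters, DESeq2 1.42.0, limma 3.58.1, a length correction, a replicate block, the 10 µM libraries alone, a test against 2-fold, and each library left out; leaving out the 0 µM libraries was added after seeing the data. Protein features and promoter sequences were not analysed here.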

Additional observations from a re-analysis of the deposited data

Results flagged for a closer look

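Of the 98 genes with a called difference, those given here are the ones the naming rule selected, plus RPL22B, which was chosen after its values were seen. For each, the edgeR test of the difference between the footprint to RNA ratio at 10 µM and at 0 µM passed an adjusted p of 0.05; each is given as the log2 difference, 10 minus 0 µM. GCN4 differed by 2.18 and HAC1 by 2.82, both above the threshold in every alternative run. RPL22B differed by 1.89, from -1.81 to 0.08, and also held in every alternative run. ARO2, for chorismate synthesis, differed by 0.93 (adjusted p = 0.04), a call lost in 7 of 8 fits with a library left out. BRO1, an endosomal sorting protein whose mRNA is carried to the bud, differed by 0.88 (adjusted p = 0.039), lost in 6 of 8. RRP12 differed by -0.73 (adjusted p = 0.023), lost in 6 of 8 and with the length trend removed. SDH4 differed by -0.83 (adjusted p = 0.048), lost in 7 of 8 and with genes limited to a mean count of at least 100. No cause was tested for any of them.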

How the results depend on the processing

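A test against 2-fold itself (glmTreat) called 896 genes at 10 µM, 157 higher and 739 lower, in place of the 3602 called at any size and the 1604 called past 2-fold; it was not run for the difference between media. Limiting genes to a mean count of at least 100 left 936 past 2-fold, from fewer genes tested (4066). Leaving out 1 library at a time gave 3039 to 3680 called genes, 1529 to 1634 past 2-fold and 20 to 151 with a difference between media; the lone sample is then assumed to vary like the other groups. The fit with a replicate block raised that last count from 98 to 181 and called 3707 and 1611 genes at 10 µM. Same-numbered footprint and RNA libraries had deviations with r of 0.19 at 10 µM and 0.14 at 0 µM, but with 2 numbers per group the libraries share only a number. With the length trend removed NEW1 and RPN2, not called in the report, were called higher at 0.64 and 0.47; the cause was not tested. The fit of the 10 µM libraries alone gives no difference between media. The RNA libraries at 10 µM were the shallowest, which limits genes with few RNA reads; intervals and SEs cover neither shared reads between copies nor RNA from other genes.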
